A study of Mus musculus with 6 samples.

Results

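The genes Cd3e, Cd3d, Cd3g, Cd8a, Cd4, Il7r, Gzma, Gzmb and Nkg7, which are commonly used to recognise T cells, natural killer (NK) cells and intraepithelial lymphocytes, were followed in MHCIIhi cells of the muscularis externa (ME), the muscle coat of the gut. They are taken by name, so that the rule itself uses no measured value, and all 9 occur among the 26110 genes listed in the deposited table. Bulk RNA-seq had been performed on MHCIIhi cells sorted by flow cytometry from the small bowel ME of untreated CX3CR1+/GFP mice, in which 1 copy of the chemokine receptor gene Cx3cr1 is replaced by the reporter GFP. There were 3 libraries of MHCIIhiCX3CR1- cells and 3 of MHCIIhiCX3CR1+ cells, and the study asked how the transcriptomes of these populations differ. All 6 libraries share the genotype, the lack of treatment and the tissue, and the age of the mice is not given in the sources used here. Both groups were made from pooled ME of several mice, and as it is not stated whether each library had a pool of its own, the p-values measure only the spread between libraries, which may be technical. The labels call both populations dendritic cells, whereas the study calls them macrophages, and neither name includes a lymphocyte. The sort kept cells with high MHC class II, which mouse T and NK cells as a rule do not carry.

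CD3 epsilon, delta and gamma are the signalling chains that every T cell carries beside its antigen receptor, and without them the receptor does not reach the surface. CD8 and CD4 are co-receptors that divide T cells into killer and helper types, but in mice both are also found on myeloid cells, CD8 alpha on a type of dendritic cell and CD4 on long-lived gut macrophages and some dendritic cells. The chain encoded by Il7r binds interleukin-7 and keeps T cells and innate lymphoid cells alive, and granzymes A and B and the granule membrane protein NKG7 serve killing by cytotoxic T cells and NK cells. Intraepithelial lymphocytes are T cells lodged between the epithelial cells of the gut, often with CD8 alpha and granzymes.

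The 3 CD3 genes lie next to each other on mouse chromosome 9, Cd3g at chr9:44969572-44980431 on the minus strand, Cd3d at chr9:44981786-44987339 on the plus strand and Cd3e at chr9:44998740-45009627 on the minus strand (GRCm38). Only 1354 bases separate Cd3g from Cd3d, and 11400 bases separate Cd3d from Cd3e. The stretches around their transcription start sites, 250 bases before and 50 bases after, are shown because these neighbours had unlike values in the ME cells, and those of Il7r and Gzma because both genes were called higher in MHCIIhiCX3CR1- cells. They are from RefSeq (GRCm38.p6), run 5′ to 3′ on the strand of the gene and span chr9:45009562-45009861 (Cd3e, minus), chr9:44981536-44981835 (Cd3d, plus), chr9:44980382-44980681 (Cd3g, minus), chr15:9529827-9530126 (Il7r, minus) and chr13:113100932-113101231 (Gzma, minus). Capitals mark ACTTCC or its reverse complement GGAAGT, the core of ETS family sites, and TGTGGT or its reverse complement ACCACA, the core of RUNX family sites. The 2 motifs do not overlap in these stretches.
Cd3e: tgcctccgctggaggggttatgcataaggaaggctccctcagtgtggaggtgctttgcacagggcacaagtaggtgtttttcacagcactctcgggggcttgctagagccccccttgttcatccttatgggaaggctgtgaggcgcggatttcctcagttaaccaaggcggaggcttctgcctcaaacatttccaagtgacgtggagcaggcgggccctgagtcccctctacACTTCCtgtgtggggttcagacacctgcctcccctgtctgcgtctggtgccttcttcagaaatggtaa
Cd3d: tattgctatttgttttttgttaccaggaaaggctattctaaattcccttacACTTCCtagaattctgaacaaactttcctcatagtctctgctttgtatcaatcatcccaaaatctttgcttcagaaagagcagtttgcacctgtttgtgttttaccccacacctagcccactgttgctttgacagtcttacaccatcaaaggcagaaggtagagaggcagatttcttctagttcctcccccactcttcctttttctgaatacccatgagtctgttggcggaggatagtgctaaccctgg
Cd3g: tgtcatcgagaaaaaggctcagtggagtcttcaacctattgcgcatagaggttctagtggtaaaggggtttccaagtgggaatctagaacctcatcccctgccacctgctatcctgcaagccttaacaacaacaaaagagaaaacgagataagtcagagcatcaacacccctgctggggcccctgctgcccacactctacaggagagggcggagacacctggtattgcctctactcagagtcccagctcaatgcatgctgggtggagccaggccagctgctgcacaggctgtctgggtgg
Il7r: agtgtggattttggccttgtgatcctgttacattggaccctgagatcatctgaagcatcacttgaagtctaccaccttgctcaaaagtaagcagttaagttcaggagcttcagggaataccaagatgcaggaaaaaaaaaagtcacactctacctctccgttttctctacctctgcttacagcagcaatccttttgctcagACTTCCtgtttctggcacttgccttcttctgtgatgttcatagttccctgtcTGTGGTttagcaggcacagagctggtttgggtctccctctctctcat
Gzma: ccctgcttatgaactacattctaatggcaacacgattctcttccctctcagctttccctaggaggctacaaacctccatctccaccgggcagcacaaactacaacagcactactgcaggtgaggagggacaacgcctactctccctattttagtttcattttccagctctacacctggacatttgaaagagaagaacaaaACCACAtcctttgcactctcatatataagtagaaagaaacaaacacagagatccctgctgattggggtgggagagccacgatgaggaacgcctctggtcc

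Promoter stretches were found for 8 of the 9 genes, and Cd4 had none in the table used. The first base of the ETS core lay 18 bases before the start of Cd3e, 199 bases before that of Cd3d and 49 bases before that of Il7r. The RUNX core began 3 bases after the start of Il7r, 50 bases before the start of Gzma, 83 bases before that of Nkg7 and both 93 and 34 bases before that of Gzmb. Neither core occurred in the stretch of Cd3g or Cd8a. Among all 32851 mouse promoter stretches of the same length, 23.8% held the ETS core and 16.8% the RUNX core, so that single matches are common, and a match describes letters only.

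The values are those the authors normalized between libraries, and they are not read counts. The smallest step of a library gives the value of 1 read, and from it the libraries held about 5346379 to 17616760 reads, with overlapping depths in both populations. A level of 3 reads lay between 1.39 and 5.36 on the normalized scale, and values at or under the level of their own library were treated as not measurable. The transcript of Cx3cr1 itself was lower in MHCIIhiCX3CR1- cells (log2 fold change -3.92, limma, Benjamini-Hochberg adjusted p = 7.72e-06), in the direction of the sort. Mitochondrial genes took 47.5 to 54.9% of the normalized total in CX3CR1- and 18.1 to 21.2% in CX3CR1+ libraries. Replicates are numbered in the order in which the labels number the libraries.

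In MHCIIhiCX3CR1- cells, Il7r, Cd8a and Gzma were higher and Cd4 was lower than in MHCIIhiCX3CR1+ cells, whereas no difference was detected for Cd3d, whose groups overlapped. Genes were tested if the mean of the 6 libraries reached 10, and called when the log2 fold change was 1 or more in size with an adjusted p no higher than 0.05. Of the 9 genes, 6 were tested, and Cd3e, Cd3g and Nkg7 were too low. Of the 6 tested genes, 3 were called higher in CX3CR1- cells, against 12.2% of all 17812 tested genes, and 1 was called lower, against 8.15%. Cd8a, Gzma and Gzmb passed the level filter only through their values in CX3CR1- cells, so that these counts say little about the genes as a set. Among the 6 tested genes, the groups did not overlap for Cd8a, Cd4, Il7r and Gzma, and 40.0% of all tested genes had groups that did not overlap. The groups of the untested Nkg7 did not overlap either, which makes 5 of the 9 genes. However, its lowest CX3CR1- value (1.013) and its highest CX3CR1+ value (0.940) were both under the level of 3 reads. For each of these 5 genes the exact two-sided permutation test gave p = 0.1, the smallest value that 3 libraries against 3 allow. As the RNA is bulk RNA, more or fewer cells of a type and more or less RNA per cell cannot be told apart in any of these values.

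**Figure D1:**
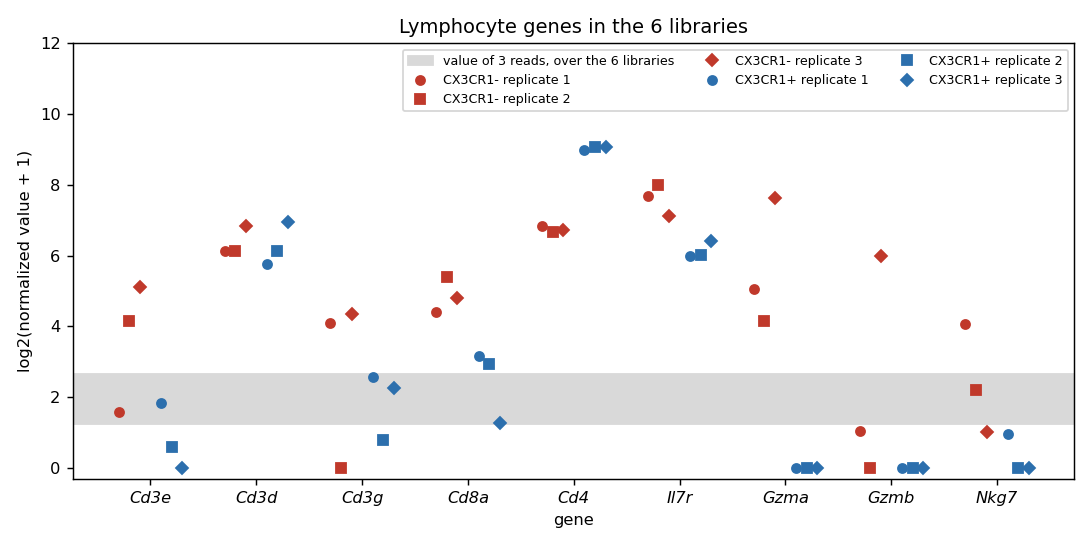
The value of each of the 9 lymphocyte genes in each of the 6 libraries is plotted as log2(normalized value + 1), with red for CX3CR1- and blue for CX3CR1+ libraries and a grey band for the range of the level of 3 reads. Cd4 stands higher in all 3 CX3CR1+ libraries, Il7r, Cd8a and Gzma stand higher in all 3 CX3CR1- libraries, and Cd3d overlaps.

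Of the CD3 chains, only Cd3d, which encodes the delta chain, was measurable in every library. Its normalized values were 68.6, 69.1 and 112.7 in CX3CR1- replicates 1, 2 and 3 and 53.7, 69.6 and 123.5 in CX3CR1+ replicates 1, 2 and 3. The groups overlapped fully, with means of 83.5 ± 25.3 (SD, n = 3) and 82.3 ± 36.6 (SD, n = 3). The log2 fold change of Cd3d was 0.07 (standard error 0.37, limma, Benjamini-Hochberg adjusted p = 0.918), and its sign turned in 4 of 15 alternatives, so that no direction can be given. Cd247, the zeta chain that signals with the CD3 chains, was likewise measurable in every library, at a mean of 86.5 ± 13.4 in CX3CR1- and 108 ± 15.6 in CX3CR1+ cells (SD, n = 3 each), with no call (log2 fold change -0.32, adjusted p = 0.428).

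The other CD3 chains were close to the limit of measurement and did not follow Cd3d. Cd3e, the epsilon chain that most antibodies to T cells recognise, had values of 1.99, 16.8 and 33.7 in CX3CR1- and 2.55, 0.521 and 0 in CX3CR1+ libraries. It was over the level of 3 reads in CX3CR1- replicates 2 and 3 and in CX3CR1+ replicate 1, and the groups overlapped, as CX3CR1- replicate 1 lay under CX3CR1+ replicate 1. Cd3g, the gamma chain, had values of 16.3, 0 and 19.5 in CX3CR1- and 4.98, 0.736 and 3.81 in CX3CR1+ libraries. It was listed at 0 in CX3CR1- replicate 2, in which Cd3e was measurable, and over the level of 3 reads in 1 CX3CR1+ library. Without the filter on low values, the log2 fold change was 2.81 for Cd3e (limma, Benjamini-Hochberg adjusted p = 0.0731) and 0.94 for Cd3g (adjusted p = 0.622), and neither was called, against 9.51% of all 26110 genes called higher. Cd3e overlaps the annotated genes Gm48719 and Gm48720, the first on the opposite strand, and the library kit does not mark the strand, so that reads of these genes cannot be fully told apart.

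The antigen receptor itself was represented by the constant regions of its chains, which were present at low levels and mostly in CX3CR1- libraries. The summed value of the 6 listed constant regions was 47.2 to 90.8 in CX3CR1- and 4.10 to 15.6 in CX3CR1+ libraries. Trac, the alpha constant region, was at 22.2, 1.5 and 1.67 in CX3CR1- libraries and listed at 0 in every CX3CR1+ library. Trbc1, a beta constant region, was at 1.38, 17.1 and 17.4 in CX3CR1- libraries and at 0 in all CX3CR1+ libraries. The library with the most Trac was therefore the one with the least Trbc1, and no CX3CR1- library was over its level of 3 reads for both.

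Of the gamma constant regions, Tcrg-C2 was over the level of 3 reads in all CX3CR1- libraries, with values of 11.5, 7.15 and 13.96, against 0, 0 and 2.83 in CX3CR1+ libraries. Tcrg-C1 had values of 23.0, 1.79 and 33.9 in CX3CR1- libraries and was at 0 in CX3CR1+ libraries. None of the 6 constant regions reached the mean of 10 needed for the test. When the filter was dropped, 4 of them (Trbc1, Tcrg-C1, Tcrg-C2 and Tcrg-C4) were called higher in CX3CR1- cells, against 9.51% of all 26110 genes. The delta constant region Trdc overlapped between the groups, with 3.13, 16.1 and 3.99 in CX3CR1- and 3.24, 3.28 and 12.7 in CX3CR1+ libraries.

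**Figure D2:**
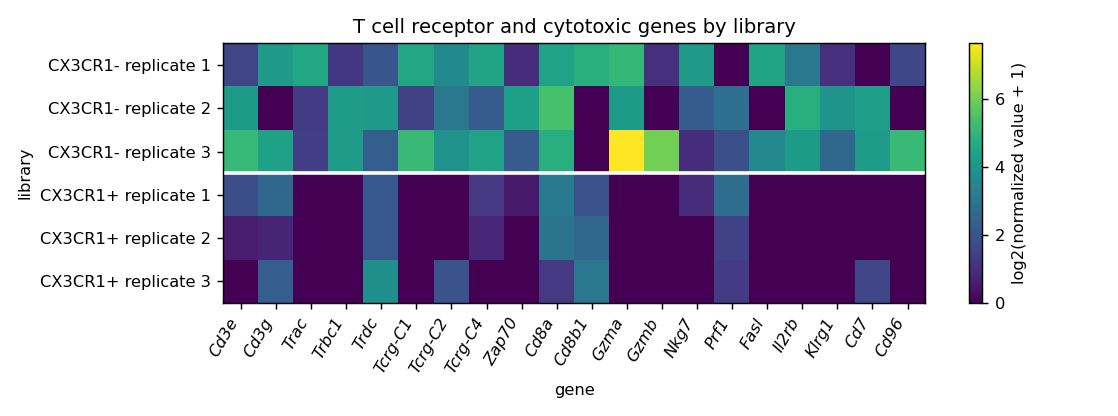
Each cell shows log2(normalized value + 1) of a T cell receptor or cytotoxic gene (columns) in a library (rows), with the CX3CR1- libraries above the white line and the CX3CR1+ libraries below it. Most of the genes drawn are at or near 0 in the CX3CR1+ libraries, and the CX3CR1- libraries differ from each other, with Gzma and Gzmb highest in replicate 3. The genes drawn are a selection. Cd3d, Cd247, Thy1, Cd27, Cd28 and Skap1, which were measurable in every library, are not drawn. Cd5, which was over the level of 3 reads in all CX3CR1+ libraries, is not drawn either.

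Genes of T cell receptor signalling and of the T cell surface did not move one way. Of 17 such genes, 15 were listed and 8 were tested. In CX3CR1- cells 2 were called higher, among them Cd2, against 12.2% of all tested genes, and 1 was called lower (Lcp2), against 8.15%. Cd2 passed the level filter only through CX3CR1- cells. The median log2 fold change of the 8 genes was 0.63, against -0.0035 over all tested genes. Cd2, an adhesion receptor of T and NK cells that other leukocytes can also carry, was at 159.7, 205.5 and 128.3 in CX3CR1- libraries and at 1.34, 0.775 and 2.05, under the level of 3 reads, in CX3CR1+ libraries, at least 60.9-fold higher. The adaptor Lcp2, which myeloid cells also use, was lower in CX3CR1- cells (log2 fold change -1.30, limma, Benjamini-Hochberg adjusted p = 0.00159). The kinases Lck and Zap70 were too low to be tested, with means of 3.91 and 7.71 in CX3CR1- libraries. After quantile normalization Lcp2 was no longer called, and 1 gene of the list was called higher.

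Cd8a (chr6:71373427-71379173, plus strand, GRCm38), which encodes the alpha chain of the CD8 co-receptor, was higher in CX3CR1- cells. Its values were 20.4, 41.3 and 27.1 in CX3CR1- and 7.90, 6.60 and 1.42 in CX3CR1+ libraries. All CX3CR1- libraries lay above all CX3CR1+ libraries, with means of 29.6 ± 10.7 (SD, n = 3) and 5.31 ± 3.43 (SD, n = 3), a 5.57-fold difference of the means. The log2 fold change of Cd8a was 2.42 (standard error 0.66, limma, Benjamini-Hochberg adjusted p = 0.0228). This call was lost without CX3CR1- replicate 2 (2.16, adjusted p = 0.0580), without CX3CR1+ replicate 3 (1.84, adjusted p = 0.0668) and after quantile normalization (1.82, adjusted p = 0.0567).

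The partner chain of conventional CD8 T cells did not accompany Cd8a. Cd8b1, the beta chain, was at 27.1, 0 and 0 in CX3CR1- and at 2.78, 4.92 and 7.08 in CX3CR1+ libraries, so that it was measured in only 1 of the 3 libraries in which Cd8a was high. CD8 alpha without the beta chain is known from intraepithelial lymphocytes and from type 1 conventional dendritic cells. Of the 6 genes listed for the latter, 5 were called higher in CX3CR1- cells (Xcr1, Clec9a, Itgae, Cd24a and Naaa), against 12.2% of all tested genes. Itgae passed the level filter only through CX3CR1- cells. The summed value of the 6 genes was 4143 to 5000 in CX3CR1- and 304.9 to 322.7 in CX3CR1+ libraries. Cd24a alone held 1824 to 1895 of it in CX3CR1- and 23.6 to 35.4 in CX3CR1+ libraries. None of these 6 genes was at 0 throughout either group, and their part in the Cd8a result was not tested.

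Cd4 (chr6:124864692-124888221, minus strand, GRCm38) was the one gene of the 9 that was called lower in CX3CR1- cells, and its SD was a smaller part of its mean than that of any other of the 9 genes that was above 0 in the group. Its values were 112.8, 101.3 and 105.7 in CX3CR1- and 506.2, 540.3 and 539.0 in CX3CR1+ libraries. The groups were far apart relative to their spread, with means of 106.6 ± 5.80 (SD, n = 3) and 528 ± 19.3 (SD, n = 3), a 4.96-fold higher level in CX3CR1+ cells. The log2 fold change was -2.30 (standard error 0.20, limma, Benjamini-Hochberg adjusted p = 2.73e-05), and it stayed between -2.34 and -2.13 in all 15 alternatives. In these CX3CR1+ libraries Cd3e was under the level of 3 reads in replicates 2 and 3, and Trac and Trbc1 were at 0 in all 3. Other T cell genes were over that level in all 3, namely Cd3d (53.7 to 123.5), Cd247 (95.6 to 125.7) and the low genes Cd8b1 and Trdc. The part of T cells in the Cd4 values was not tested.

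Of 10 genes listed for resident gut macrophages that bear CD4, 7 were called lower in CX3CR1- cells, against 8.15% of all tested genes, including the mannose receptor Mrc1 (log2 fold change -2.18), Adgre1, which encodes F4/80 (-3.14), and the receptor for macrophage colony-stimulating factor Csf1r (-2.42). Timd4 and Lyve1, markers of long-lived tissue macrophages, were called higher (2.04 and 1.35), and Folr2 was not called (0.60). The median of the 10 genes was -2.23, and their summed value was 8829 to 10589 in CX3CR1- and 41786 to 45575 in CX3CR1+ libraries, with none of them at 0 in any library. Of 8 genes of plasmacytoid dendritic cells, which can also carry CD4, 6 were tested. Siglech and Bst2 were called lower, against 8.15% of all tested genes, and Ly6d and Klk1 higher, against 12.2%. The summed value of the 8 genes was 1318 to 1782 in CX3CR1- and 2390 to 2480 in CX3CR1+ libraries. Ly6d was at 0 in all CX3CR1+ libraries, the groups of Klk1 overlapped, and only 1 gene of this list was called higher without CX3CR1- replicate 3, CX3CR1+ replicate 1 or CX3CR1+ replicate 3. The part of these cells in the Cd4 result was not tested.

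**Figure D3:**
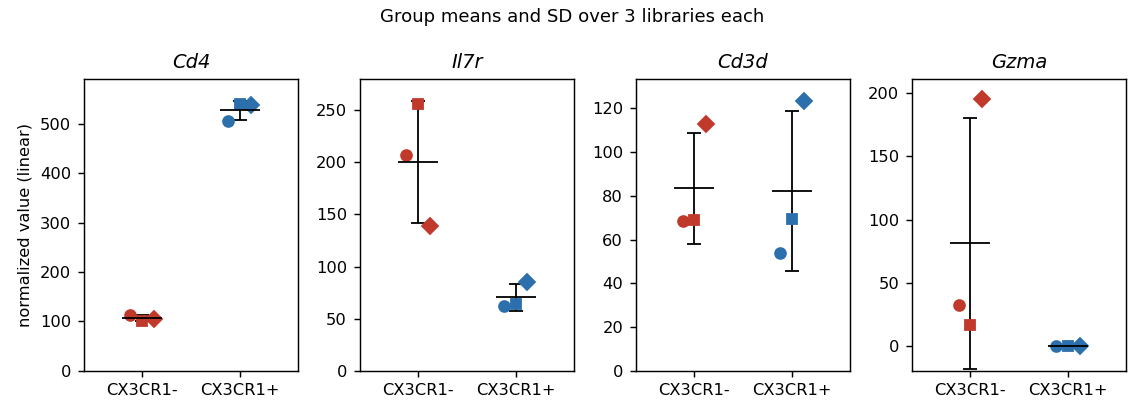
Normalized values on a linear scale are shown for Cd4, Il7r, Cd3d and Gzma, with 1 point per library, a horizontal line at the mean and bars of 1 SD over 3 libraries. Cd4 lies near 106.6 in CX3CR1- and near 528 in CX3CR1+ libraries with small bars, whereas the Gzma bar in CX3CR1- libraries reaches below 0 because replicate 3 lies at 195.5.

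Il7r (chr15:9505788-9530176, minus strand, GRCm38), the interleukin-7 receptor alpha chain, was measurable in every library and higher in CX3CR1- cells. Its values were 207.0, 255.7 and 138.5 in CX3CR1- and 62.4, 63.8 and 85.1 in CX3CR1+ libraries. The lowest CX3CR1- library lay above the highest CX3CR1+ library, with means of 200.4 ± 58.9 (SD, n = 3) and 70.4 ± 12.7 (SD, n = 3), a 2.85-fold difference. The log2 fold change of Il7r was 1.47 (standard error 0.30, limma, Benjamini-Hochberg adjusted p = 0.00500), and the call was kept in all 15 alternatives, between 1.27 and 1.71.

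Of 9 tested partner and signalling genes of this receptor, 1 was called higher and 1 lower, a share near the 20.4% of all tested genes called in either direction, and the median log2 fold change was 0.08. The common gamma chain Il2rg, the second chain of the interleukin-7 receptor, was not called (log2 fold change 0.61, limma, Benjamini-Hochberg adjusted p = 0.102), nor was Crlf2, with which the Il7r chain forms the receptor for thymic stromal lymphopoietin (-0.09, adjusted p = 0.866). Cish, a feedback inhibitor that STAT5 induces, was higher in CX3CR1- cells (194.5 ± 81.6 against 56.0 ± 15.8, SD, n = 3, log2 fold change 1.74, adjusted p = 0.00593). Bcl2, the survival factor that interleukin-7 maintains in T cells, was lower (225.7 ± 75.3 against 518 ± 26.0, SD, n = 3, log2 fold change -1.24, adjusted p = 0.00443).

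Innate lymphoid cells carry Il7r but no antigen receptor. Of 12 genes chosen for them, 9 were listed and 8 were tested, and Il23r, Il22 and Il17a were not listed. Of the 8 tested genes 2 were called, again near the 20.4% of all tested genes. Kit was called higher (log2 fold change 3.30, limma, Benjamini-Hochberg adjusted p = 9.27e-04) and Id2, a repressor that these cells and dendritic cells need, was called lower (-1.81, adjusted p = 0.00141). Without CX3CR1- replicate 1 or CX3CR1+ replicate 2, 2 genes of this list were called higher, and without CX3CR1- replicate 3, 2 were called lower. The summed value of the 9 listed genes was 1620 to 2138 in CX3CR1- and 1647 to 2967 in CX3CR1+ libraries. Of 7 genes of mature migratory dendritic cells, which can also carry Il7r, 5 were called higher, against 12.2% of all tested genes. Only 3 were when CX3CR1- replicate 1, CX3CR1- replicate 3, CX3CR1+ replicate 2 or CX3CR1+ replicate 3 was left out. Cd83 was called lower, and Relb was lower but not called (log2 fold change -0.62, adjusted p = 0.0836). The summed value of the 7 genes was 5011 to 6821 in CX3CR1- and 13305 to 17052 in CX3CR1+ libraries. Cd83 carried that sum, and the other 6 genes added up to 1702 to 2150 in CX3CR1- and 412.2 to 511.5 in CX3CR1+ libraries. Of these 6, Ccl22 alone held 1020 to 1494 in CX3CR1- and 73.0 to 93.3 in CX3CR1+ libraries. The part of these cells in the Il7r result was not tested.

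The cytotoxic genes Gzma, Gzmb and Nkg7 were at 0 or under the level of 3 reads in all CX3CR1+ libraries and uneven among the CX3CR1- libraries. Gzma (chr13:113093825-113100981, minus strand, GRCm38), which encodes granzyme A, had values of 32.4, 16.7 and 195.5 in CX3CR1- libraries and 0 in every CX3CR1+ library. All 3 CX3CR1- libraries were over the level of 3 reads, at about 31.1, 9.32 and 196 reads, but replicate 3 held most of the group's signal (mean 81.5 ± 99.02, SD, n = 3). Against the level of 3 reads per CX3CR1+ library, Gzma was at least 30.2-fold higher in CX3CR1- cells, and at least 9.09-fold higher without replicate 3. It was called higher (limma, Benjamini-Hochberg adjusted p = 0.00190), also without CX3CR1- replicate 3 (adjusted p = 0.00330).

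Gzmb (chr14:56258838-56262260, minus strand, GRCm38), which encodes granzyme B, rested on a single library. Its values were 1.04, 0 and 62.8 in CX3CR1- libraries and 0 in all CX3CR1+ libraries, so that the groups overlapped at 0. About 63 reads came from CX3CR1- replicate 3 and 1 from replicate 1, and Gzmb was not called (log2 fold change 2.34, standard error 1.74, limma, Benjamini-Hochberg adjusted p = 0.377). Without replicate 3 its log2 fold change was 0.52 (adjusted p = 0.735). Nkg7 (chr7:43437073-43438249, plus strand), which encodes the granule membrane protein, had values of 15.9, 3.63 and 1.013 in CX3CR1- and 0.940, 0 and 0 in CX3CR1+ libraries, and only CX3CR1- replicate 1 was over its level of 3 reads. Nkg7 was thus highest in another library than the granzymes, and without the filter it was not called (log2 fold change 2.12, adjusted p = 0.159).

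**Figure D4:**
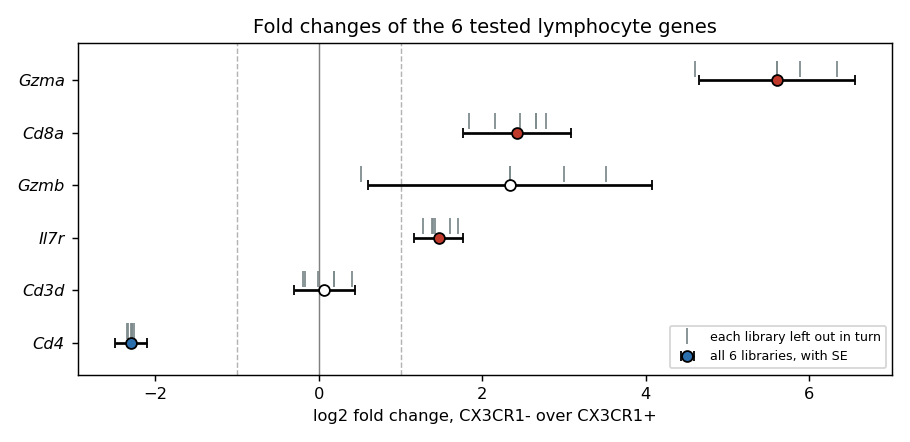
The log2 fold change of each of the 6 tested genes is drawn as a point with its standard error, red where called higher, blue where called lower in CX3CR1- cells and white where not called, and grey ticks give the value without each single library. The dashed lines mark the threshold of 1 in each direction, and the ticks of Gzmb spread widest, down to 0.52, while those of Cd4 stay close to -2.30.

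Of 11 other genes of the cytotoxic granule, 7 were listed, and Gzmc, Gzmk, Ctsw and Ifng were not. Of the 7 listed genes, 3 were tested and 2 were called higher in CX3CR1- cells, against 12.2% of all tested genes. These were Serpinb9, an inhibitor of granzyme B, and Serpinb6b, of the same inhibitor family (log2 fold changes 2.15 and 4.99), which passed the level filter only through CX3CR1- cells. Prf1, the pore-forming perforin, was at 0, 5.90 and 2.60 in CX3CR1- and at 5.62, 1.80 and 1.56 in CX3CR1+ libraries, so that it did not follow Gzma. Fasl, the death ligand of cytotoxic cells, was at 20.9, 0 and 11.0 in CX3CR1- libraries and at 0 in CX3CR1+ libraries.

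Of 12 NK receptor genes, 8 were listed, and Ncr1, Klrc1, Klra4 and Klra8 were not. Of the 8 listed genes, 4 were tested and 3 were called higher in CX3CR1- cells, against 12.2% of all tested genes. This count was 2 without any 1 of the CX3CR1+ libraries and after quantile normalization, and Klrd1 passed the level filter only through CX3CR1- cells. Klrk1, the activating receptor NKG2D, rose from 18.9 ± 5.66 to 77.3 ± 19.98 (SD, n = 3), Klrd1, its relative CD94, from 3.57 ± 0.959 to 24.3 ± 12.8 (SD, n = 3) and Cd244 from 12.6 ± 7.90 to 94.5 ± 4.19 (SD, n = 3). On the log2 scale they were higher by 1.98, 2.37 and 3.00 (limma, Benjamini-Hochberg adjusted p = 0.00433, 0.0208 and 0.00128). The summed value of the 8 genes was 240.2 to 254.3 in CX3CR1- and 22.6 to 64.1 in CX3CR1+ libraries. In CX3CR1- libraries Klrk1 (95.5, 55.9 and 80.5) and Cd244 (90.1, 94.9 and 98.5) held most of it. Klrd1, at 19.6, 38.8 and 14.6, was uneven among these libraries. Il2rb, the interleukin-15 receptor chain of NK cells and intraepithelial lymphocytes, was at 7.31, 26.8 and 17.0 in CX3CR1- libraries and at 0 in CX3CR1+ libraries, at least 6.31-fold higher.

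The list of intraepithelial lymphocyte genes held the largest single log2 fold change among the tested genes of the lymphocyte lists, that of Itgae. Of 10 listed genes, 7 were tested and 3 were called higher in CX3CR1- cells, against 12.2% of all tested genes. Itgae passed the level filter only through CX3CR1- cells. The median log2 fold change of the 7 genes was 0.61, and the summed value of the 10 was 930.1 to 1261 in CX3CR1- and 205.8 to 245.1 in CX3CR1+ libraries. Itgae and Itgb7 encode both chains of the integrin that binds E-cadherin of the epithelium. Itgae was at 266.6, 271.6 and 503.5 in CX3CR1- and at 1.86, 3.29 and 0 in CX3CR1+ libraries (log2 fold change 7.17, limma, Benjamini-Hochberg adjusted p = 1.76e-05), and Itgb7 was higher by 3.64 on the log2 scale (adjusted p = 1.32e-05). The chemokine Ccl5 was higher by 1.56 (adjusted p = 0.00850), whereas the gut-homing receptor Ccr9 was not called (0.61, adjusted p = 0.158). Itgae is also a marker of type 1 conventional dendritic cells and stands in both lists.

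Epithelial and B cell genes were also higher in CX3CR1- cells. All 9 enterocyte and epithelial genes listed were called higher in CX3CR1- cells, against 12.2% of all tested genes. Their summed value was 17045 to 29018 in CX3CR1- and 26.8 to 46.5 in CX3CR1+ libraries. CX3CR1- replicate 3, which had most Gzma and Gzmb, had the lowest epithelial sum of its group, with 6 of the 9 genes lowest there. Of 8 B and plasma cell genes, 7 were called higher, against the same 12.2%. The summed value of the 8 genes was 14219 to 34270 in CX3CR1- and 1668.55 to 2039.98 in CX3CR1+ libraries. In CX3CR1+ libraries, the epithelial gene Alpi and the plasma cell gene Mzb1 were among those at 0 throughout, and in CX3CR1- libraries every gene of both lists was over the level of 3 reads. The study gated leukocytes by CD45 in its flow cytometry of the ME, a gate that epithelial cells do not pass, and whether the sort for RNA-seq used it is not stated in the sources used here. The part of these cells in the values of Cd8a, Il7r, Gzma and the CD3 genes was not tested. Of 8 mast cell genes, which can also carry granzymes, 1 was listed, Ms4a2, at 2.76 to 5.34 in CX3CR1- and 2.13 to 6.81 in CX3CR1+ libraries.

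**Figure D5:**
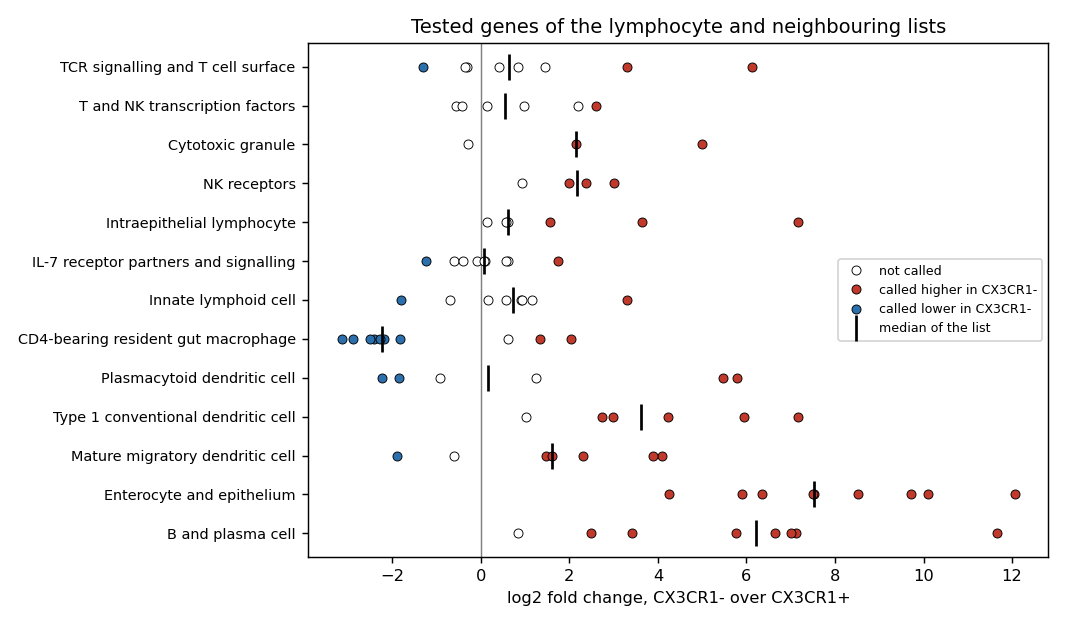
Each point is the log2 fold change of a tested gene of 1 list, CX3CR1- over CX3CR1+, filled red where called higher and blue where called lower, with a black bar at the median of the list. The lymphocyte lists have medians between 0.08 and 2.18, the list of macrophages that bear CD4 lies at -2.23, and the epithelial and B cell lists lie at 7.51 and 6.21.

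Levels of different genes were compared per kilobase of the longest coding transcript, as the normalized values grow with transcript length. In CX3CR1+ cells the order was clear at the top, with Cd4 at 170.0 ± 6.22, Cd3d at 50.9 ± 22.6 and Il7r at 19.9 ± 3.59 (normalized value per kilobase, SD, n = 3), and the ranges of 1 SD around these did not meet. All other genes were lower there, from Cd3g at 3.10 ± 2.14 down to Nkg7 at 0.356 ± 0.616 and to Gzma and Gzmb at 0. From Cd3g to Nkg7, neighbours in the order overlapped within 1 SD. In CX3CR1- cells Gzma was nominally first at 81.9 ± 99.4 per kilobase, but its spread covered all other genes. Il7r at 56.6 ± 16.6 and Cd3d at 51.6 ± 15.7 per kilobase did not differ beyond their spread, and Cd4 at 34.3 ± 1.86 reached the lower edge of that of Cd3d. Gzmb, Cd3e, Cd3g, Cd8a and Nkg7, from 14.8 down to 7.78 per kilobase, overlapped within 1 SD.

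The genes whose pattern over the 6 libraries was most like that of Cd4, Il7r and the mean of the CD3 genes were sought by Pearson's r of log2(value + 1) among 10207 genes with a mean of at least 50. These correlations are descriptions over 6 libraries in 2 groups, which share the sort and the depth of each library. For Cd4, 117 genes had an r of at least 0.99, led by Cd33, Skil, Sdcbp, Ehd4 and A630081D01Rik, each at 0.999. Cd33 was at 310.4, 233.6 and 275.6 in CX3CR1- and at 5139, 5091 and 5065 in CX3CR1+ libraries. For Il7r there were 12 such genes, led by Mturn (0.998), Ptprr (0.996), Pak4, Stk24 and Ccl25 (each 0.992). Of these, Ccl25, a chemokine of the small bowel epithelium that attracts lymphocytes with Ccr9, was at 154.0, 205.7 and 122.1 in CX3CR1- and at 39.9, 38.9 and 53.2 in CX3CR1+ libraries. For the mean of Cd3e, Cd3d and Cd3g there were 2 such genes, Lias (0.996) and Med27 (0.9903), followed by Klhdc2 and Impa1 (each 0.980) and Crtc1 (0.978), and no T cell gene of the lists was among these 5.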

How the data were processed

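RNA from 6 libraries of sorted MHCIIhi cells of the small bowel ME, 3 CX3CR1- and 3 CX3CR1+ by the sample titles, was analysed. The authors prepared libraries with a TruSeq kit that does not mark the strand, pseudoaligned single reads with Kallisto to GENCODE M16 transcripts (mm10), imported the estimates with tximport, added them up by gene and scaled the libraries to each other with DESeq2. What they deposited is thus normalized signal. It was not treated as counts, since the share of nonzero values that are whole multiples of the smallest step, within 0.01 reads, was 42.5 to 44.7% per library. That step gave approximate depth, from 5346379 to 17616760 reads. Genes are matched by symbol, and 23 symbols are listed more than once, none of them among the 9 genes. Some genes of the lists are not reported here.

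The 17812 genes whose mean reached 10 were fitted as log2(value + 1) with limma 3.58.1 in R 4.3.3 (lmFit, eBayes with trend), two-sided, and p-values were adjusted over all of them by Benjamini-Hochberg. Fold changes on this scale understate those of low genes, and positive values mean higher in CX3CR1- cells. A lower bound of a fold sets the mean of 1 group against the mean of the 3-read levels of the other (2.70 in CX3CR1+ libraries), and covers counting error only. The test was checked on simulated data. The 9 genes, the 15 lists and the rules were chosen with earlier results of these data known. Named are all 9 genes, up to 4 called genes a direction per list by unadjusted p, list genes compared by function, and the 5 genes of most like pattern. Positions, transcript lengths and shared 31-mers, at most 3.10% for the 9 genes, come from GENCODE M21 for GRCm38, and promoters from RefSeq. Alternatives were pseudocounts of 0.5 and 10, other level filters, rescaling, quantile normalization, other variance settings, leaving out each library and, added after the data were seen, a block for adjacent library numbers. Plots were drawn with matplotlib 3.10.9.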

Additional observations from a re-analysis of the deposited data

How the results depend on the processing

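Cd4 stayed called lower and Il7r called higher in all 15 alternatives, with adjusted p of at most 0.00103 and 0.0253 (limma, Benjamini-Hochberg). Gzma stayed called higher in the 14 alternatives that tested it (log2 fold change 2.62 to 6.59), and Gzmb was called in none of 14. Cd8a was called in 11 of 14. With a mean of at least 50, only 1 of the 9 genes was called higher, as Cd8a, Gzma and Gzmb were then not tested, and 1232 genes in all. Leaving out 1 library at a time gave 2 to 3 of the 9 genes called higher and 1 called lower, and 1693 to 2292 and 1005 to 1570 of all genes. Cd3d turned to -0.15 after quantile normalization, to -0.17 without CX3CR1- replicate 3, to -0.19 without CX3CR1+ replicate 1 and to -0.01 without CX3CR1+ replicate 2, with no call, and leaving out 1 library gave -0.19 to 0.40. Quantile normalization shifted the median over all tested genes to -0.15 (log2) and gave 1716 higher and 1674 lower calls. Rescaling to the total without mitochondrial genes moved it to 0.16 and gave 2487 and 1116, against 2177 and 1451. The cause of these shifts was not tested. Relative to these medians, Cd4 and Il7r kept their directions. Cd3e, Cd3g, Nkg7 and the receptor constant regions rested on low numbers of reads, from 0 to about 34 per library, which limits their comparison. The labels share no replicate numbers, but adjacent library numbers form 3 pairs with 1 library of each group. A fit with these as a replicate block, added after the data were seen, called 2165 genes higher and 1445 lower, and the same calls were made for the 6 tested genes. The deviations from the group means correlated at 0.104, 0.038 and 0.014 within the pairs, so the pairs were not treated as a design.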

Other observations

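The transcription factors of T and NK cells were mostly low or shared by both populations. Of 10 listed genes, 6 were tested and 1 was called higher in CX3CR1- cells, a share near the 12.2% of all tested genes. This was Gata3, which directs T helper cells and innate lymphoid cells and passed the level filter only through CX3CR1- cells. It was at 10.2, 93.5 and 38.3 against 5.68, 7.38 and 2.32 in CX3CR1+ libraries (log2 fold change 2.61, limma, Benjamini-Hochberg adjusted p = 0.0361). No gene of this list was called without CX3CR1- replicate 3 or without any 1 of the CX3CR1+ libraries. Runx3, a factor of CD8 T cells that myeloid cells also express, was at 285 ± 43.0 in CX3CR1- and 427 ± 102 in CX3CR1+ libraries (SD, n = 3) and was not called.

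Some low genes had, like Gzmb, most of their value in CX3CR1- replicate 3. Tbx21, the factor T-bet of cytotoxic and NK cells, was at 1.04, 0 and 25.9 in CX3CR1- libraries, and Cd96, a receptor of T and NK cells, was at 2.09, 0 and 33.9. Tcf7 was at 7.31, 5.36 and 41.9. In contrast, Xcl1, a chemokine of NK cells and CD8 T cells, was at 0, 19.7 and 0.997, and was therefore highest in replicate 2. These genes were picked after their values were seen, and no test was made of the differences between replicates.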
